A study of Mus musculus with 4 samples.

Results

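The cells described here are type 1 innate lymphoid-like (ILC1-like) cells, picked out of 4 droplet single-cell RNA libraries of mouse liver nonparenchymal cells by the unique molecular identifiers (UMIs) of 15 genes. A barcode with at least 200 genes and at most 20% mitochondrial UMIs was a member under 5 conditions on its UMI sums. Ncr1 plus Klrb1c, which encode the NKp46 and NK1.1 receptors of group 1 innate lymphocytes, had to reach at least 1. Gzmc, Cxcr6, Itga1 and Il7r together had to reach at least 2, and Klra8, Klra4 and Eomes, which mark conventional natural killer (NK) cells, had to be at 0. The CD3 genes Cd3d, Cd3e and Cd3g could sum to at most 1, and the B cell and myeloid genes Cd79a, Ms4a1 and Lyz2 to at most 2. These rules kept 260 of 24561 barcodes. Because the members were chosen by the readout itself, the levels of these 15 genes describe the rule and were not tested.

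All 4 donors were wild-type C57B6 mice, 18 to 20 weeks old, with 1 mouse per group. The control mouse was given normal saline. The TAA mouse was injected with thioacetamide, a hepatotoxin used to induce liver fibrosis, over 12 weeks. A further pair, called TAA+C7.5 and TAA+C30, had the same injections and were gavaged, from week 5, with 7.5 or 30 mg/kg of celecoxib, a selective inhibitor of cyclooxygenase-2. The 3 treated mice therefore all carried thioacetamide injury, and the design compares TAA with control, each celecoxib dose with TAA, and the doses with each other. With 1 mouse per group no difference between libraries has a replicate check, no p-value was computed for one, and intervals cover counting error only.

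Type 1 innate lymphoid cells are tissue-resident lymphocytes that share NKp46, NK1.1 and interferon-gamma production with NK cells. In mouse liver they are distinguished by CD49a (the product of Itga1), CXCR6, which binds the CXCL16 displayed on sinusoidal endothelium, and often the interleukin-7 receptor, whereas circulating NK cells carry CD49b and depend on the transcription factor Eomes. Liver ILC1 are known for the death ligand TRAIL, for granzyme C and for the chemokine XCL1, which attracts cross-presenting dendritic cells.

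Values are given throughout in the order control, then TAA, then TAA+C7.5, then TAA+C30. The members numbered 36, 64, 66 and 94 and held 174042, 373287, 148417 and 324589 UMIs. Their median depth was 4679, 5196.5, 2218 and 3460.5 UMIs, and that of all kept barcodes 3396.5, 4632.5, 1994 and 3138. The TAA library was thus the deepest and the TAA+C7.5 library the shallowest, and both requirements of the rule (at least 2 UMIs of some genes, 0 of others) depend on depth. Pairs of libraries shared 7 to 13 barcode sequences, none of which belonged to a member in both.

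Some members carried the RNA of another cell type. UMIs of endothelial, cholangiocyte, myeloid and B cell genes were summed in each member, and 9, 3, 0 and 4 members held 20 or more; they are called mixed barcodes below. The split was clear, since the highest sum below that limit was 16 and the lowest above it 33. The 9 mixed control members held 33.9% of all control member UMIs, the 3 in TAA 13.3% and the 4 in TAA+C30 10.4%. The doublet caller Scrublet marked 1, 0 and 2 of them. Most mixed control barcodes had entered through Itga1 alone: of the 10 control members whose only gate gene was Itga1, 8 were mixed, and Itga1 also stood at 463 CPM (UMIs of the gene per 1000000 UMIs of the cells summed) in all other control barcodes. The limit of 20 UMIs was set after the data were seen, and the main results are given with and without mixed barcodes.

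**Figure D1:**
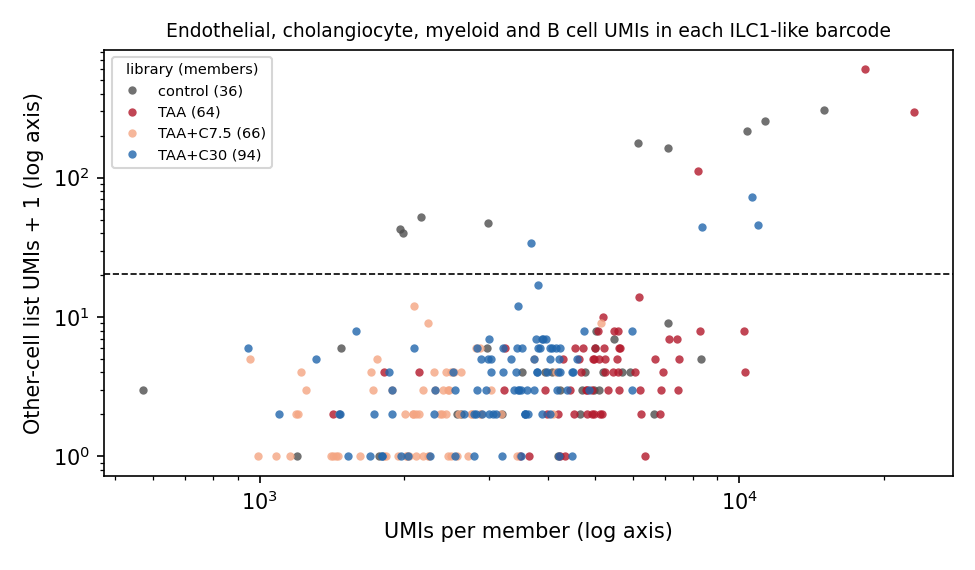
UMIs of endothelial, cholangiocyte, myeloid and B cell genes (plus 1, log axis) against total UMIs (log axis) for each of the 260 members, coloured by library. The dashed line marks 20 UMIs; 9 control, 3 TAA and 4 TAA+C30 members lie above it, and none of TAA+C7.5.

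ILC1-like cells made up 0.622% of control barcodes (exact Clopper-Pearson 95% interval 0.436 to 0.860), 0.983% of TAA (0.758 to 1.25), 1.08% of TAA+C7.5 (0.840 to 1.38) and 1.52% of TAA+C30 (1.23 to 1.86). The TAA share was 1.58 times the control share (exact conditional 95% interval 1.03 to 2.45), and the TAA+C30 share 1.55 times the TAA share (1.11 to 2.16). TAA+C7.5 against TAA gave 1.10 (0.771 to 1.58), and the higher against the lower dose 1.40 (1.013 to 1.95). Without mixed barcodes these 4 ratios were 2.01 (1.26 to 3.29), 1.56 (1.11 to 2.19), 1.16 (0.805 to 1.67) and 1.34 (0.966 to 1.87), the last with an interval that includes 1. Among barcodes with a UMI of Ptprc, the pan-leukocyte gene, the shares were 1.05%, 1.15%, 1.29% and 1.72%, and the ratio of TAA to control was 1.09 (0.685 to 1.78). When every barcode was thinned to 1000 UMIs before gating, 13, 13, 27 and 33 members were left and the ratio of TAA to control was 0.803 (0.343 to 1.88). The order of TAA and control was thus opposite at equal depth, with an interval that includes 1. After thinning, both celecoxib libraries kept a larger share than TAA, at 2.41 times (1.20 to 5.10) for TAA+C7.5 and 2.79 times (1.43 to 5.78) for TAA+C30. Among thinned barcodes with a Ptprc UMI the same ratios were 1.57 (0.705 to 3.596) and 2.02 (0.965 to 4.46), and both intervals include 1.

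Set against NK and ILC barcodes alone (at least 2 UMIs over the 7 genes that separate these cells), ILC1-like cells were 34.6% of 104 control barcodes, 50.0% of 128 in TAA, 36.7% of 180 in TAA+C7.5 and 51.4% of 183 in TAA+C30. The exact intervals of these shares were 25.6 to 44.6, 41.0 to 59.0, 29.6 to 44.2 and 43.9 to 58.8. The lower share in TAA+C7.5 went with more NK-like cells there, 105 against 55, 52 and 75 in the other libraries. With Il7r left out of the rule, only 28 members remained in TAA+C7.5 and its share was 19.7%, against 42.9% in TAA+C30.

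**Figure D2:**
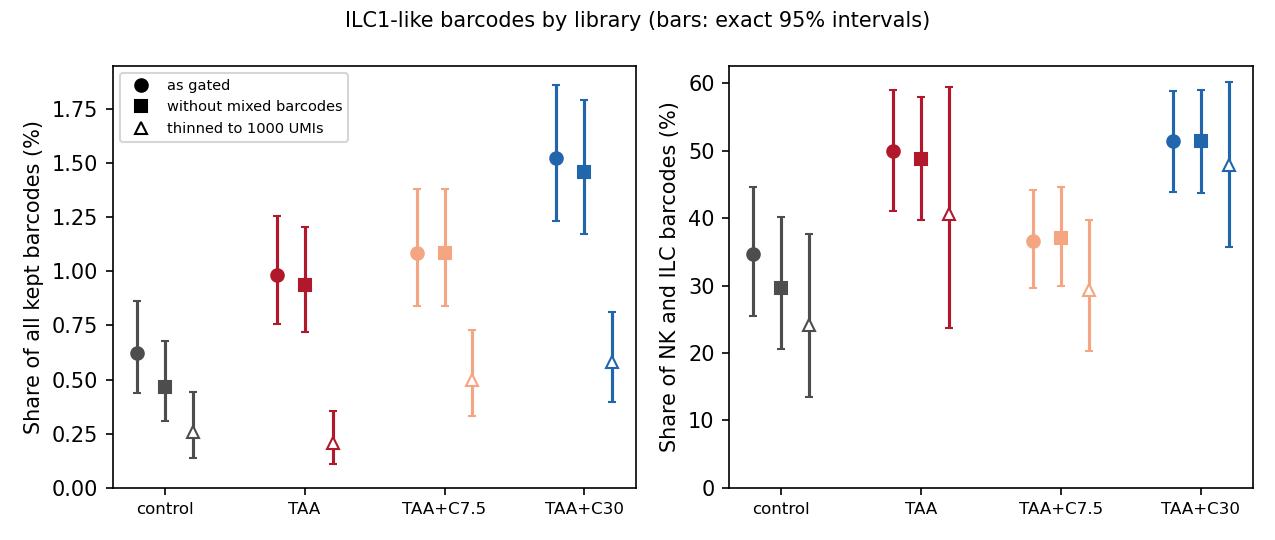
ILC1-like barcodes as a percentage of all kept barcodes (left) and of NK and ILC barcodes (right) in each library, as gated, without mixed barcodes and after thinning to 1000 UMIs. Bars are exact 95% binomial intervals. On the left, the TAA point lies above control as gated (0.983% against 0.622%) and not after thinning. On the right, TAA lies above control both as gated (50.0% against 34.6%) and after thinning (40.6% against 24.1%).

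The 4 genes that admitted a member were used in different proportions. Il7r, the interleukin-7 receptor alpha chain, had a UMI in 58.3%, 57.8%, 81.8% and 70.2% of members, and Cxcr6 in 58.3%, 73.4%, 39.4% and 63.8%. Itga1 had a UMI in 63.9%, 53.1%, 31.8% and 48.9%, and Gzmc, which encodes granzyme C, in 19.4%, 31.2%, 15.2% and 29.8%. At least 2 of the 4 genes were found together in 21, 47, 35 and 71 members. Members admitted by Il7r alone were most frequent in TAA+C7.5, with 22 of 66, against 2 of 36, 7 of 64 and 12 of 94 elsewhere.

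**Figure D3:**
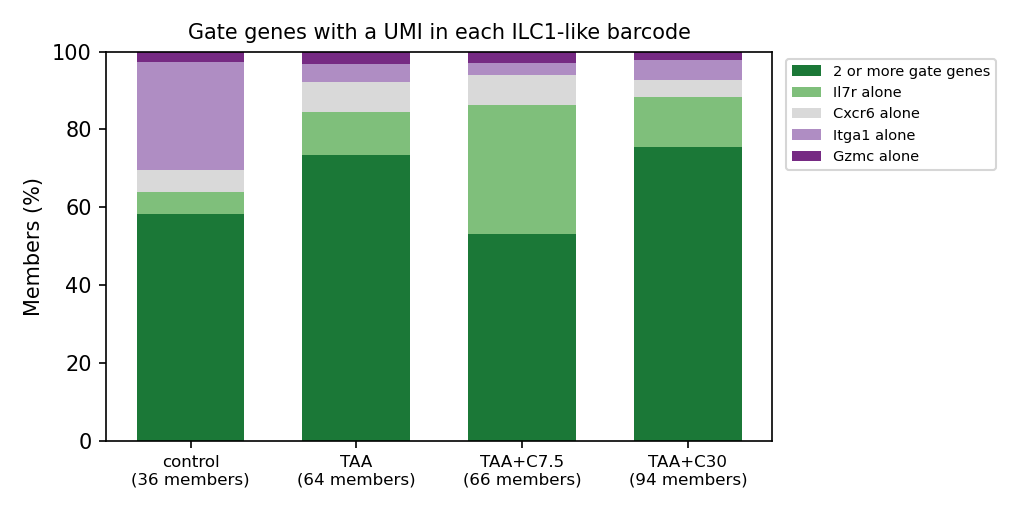
Share of members (%) in each library by which of Gzmc, Cxcr6, Itga1 and Il7r had a UMI. The Itga1-only class is widest in control (10 of 36 members) and the Il7r-only class in TAA+C7.5 (22 of 66).

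Summed over members without mixed barcodes, Gzmc (14:56231441-56234656, minus strand, build mm10) stood at 330, 834, 384 and 1034 CPM. The TAA and TAA+C30 sums were high and the control and TAA+C7.5 sums low, which describes cells that this gene helped to choose. Cxcr6 (9:123806475-123811760) was at 600, 290, 270 and 364 CPM and Il7r (15:9505788-9530176) at 731, 269, 950 and 546 CPM. Itga1 (13:114953096-115101964) was at 209, 176, 209 and 258 CPM without mixed barcodes. With them it was at 546, 198, 209 and 237 CPM, so the excess in control lay in the mixed barcodes. The neighbouring granzymes Gzmd, Gzme, Gzmf and Gzmg, close copies of Gzmc, had 0 UMIs in all 4 libraries, which allows at most 26.1, 9.27, 20.2 and 10.3 CPM (3 counts).

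Xcl1 (1:164931644-164935527), a marker the rule did not use, was at 1870, 3256, 1880 and 2887 CPM in members without mixed barcodes. NK-like cells, likewise without mixed barcodes, held 255, 756, 965 and 569 CPM of it. In B cells, which do not make this chemokine, it was near 0.556 to 1.28 CPM, so free RNA contributed little. A UMI of Xcl1 was found in 58.3%, 98.4%, 86.4% and 94.7% of all members (31.4%, 75.0%, 67.2% and 83.9% at 1000 UMIs per cell). The same share was 43.6%, 59.6%, 58.1% and 46.7% of NK-like cells and at most 0.331% of B cells.

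Markers of neighbouring lineages differed by list. Trac, the constant region of the T cell receptor alpha chain, was at 22.98, 24.1, 74.1 and 27.7 CPM against 486 to 558 CPM in T cells. The T cell list as a whole (10 genes) summed to 914 to 1833 CPM in members and 3652 to 4775 in T cells. NK-like cells held 786 to 987 CPM of it, less than the members in every library. Cd8a was at 0 in members of every library. In the comparison with NK-like cells given below, 4 genes of this list were tested. Of these, 1 was higher in members and 0 lower. The gamma delta T cell list (6 genes, Tcrg-C4 and Trdc among them) summed to 224, 102, 209 and 209 CPM in members, against 196 to 238 CPM in T cells and 72.7 to 103 CPM in NK-like cells. Without mixed barcodes the members held 339, 114, 209 and 223 CPM of it. Outside TAA it was thus near the T cell level in all members. Without mixed barcodes the control sum was above that of control T cells (219 CPM). The part of this list in the results was not tested. The ILC2 list (8 genes) summed to 86.2, 99.1, 216 and 126 CPM, against 116 to 152 CPM in T cells, with its defining genes Il1rl1, Il13 and Il5 at 0 UMIs in all 4 libraries. Of the ILC3 list, all 7 genes were at 0 in both celecoxib libraries, and 5 of 7 in control and TAA. The list summed to 80.4 CPM in control members (14 UMIs in 5 members) and to 5.36 CPM in TAA members. Without mixed barcodes these sums were 95.7 and 3.09 CPM. T cells of control and TAA held 109 and 140 CPM of the list, and NK-like cells of both held 0. Endothelial genes (8 genes) summed to 7475, 780, 0 and 6.16 CPM in all members, and to 209, 24.7, 0 and 6.87 CPM without mixed barcodes.

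The members were not uniform. Pooled over libraries and without mixed barcodes, the 64 cells with a Gzmc UMI held 4213 CPM of Xcl1 and 1333 CPM of Gzmb, which encodes granzyme B. The 180 cells without one held 2118 CPM of Xcl1 and 409 CPM of Gzmb. The transcription factor genes Rora and Tcf7 had the opposite order, at 393 and 23.8 CPM in Gzmc-positive cells and 666 and 73.5 CPM in the rest. The 42 cells admitted by Il7r alone were low in Gzmb (113 CPM) and Ifng (161 CPM) and higher in Tcf7 (161 CPM). The 11 cells admitted by Itga1 alone held 5701 CPM of Gzma and 18883 CPM of Ccl5, against 413 and 5511 CPM in the 168 cells with 2 or more gate genes. Libraries contributed unequally to these subsets, so their contrasts are descriptions only. At the threshold itself, the 66 cells with a gate sum of 2 held 1948 CPM of Xcl1, 294 of Tmem176b and 1769 of Gzma, and the 86 excluded cells with a sum of 1 held 2343, 326 and 1370 CPM.

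To describe what these cells share beyond the rule, their summed counts were compared with those of 287 NK-like cells (55, 52, 105 and 75) from the same mice, which had at least 2 UMIs of Klra8, Klra4 and Eomes and 0 of Gzmc, Cxcr6, Itga1 and Il7r. Each mouse gave a pair of sums, and edgeR's quasi-likelihood test was run with the mouse as block. All genes of the rule, the other Klra genes and the granzymes next to Gzmc were left out. ILC1-like cells had higher levels of the mRNAs for TRAIL, XCL1, lymphotoxin beta, CD200R and the factor RORalpha. The mRNAs for granzyme A, perforin, CD11b, CD49b and the factor IRF8 were lower. Of 3762 genes tested, 188 (5.00%) were higher and 212 (5.64%) lower at a Benjamini-Hochberg adjusted p of 0.05 or less. Without the TAA+C30 library these counts were 128 and 119, without the block 111 and 122, and without mixed barcodes 238 and 236. The fit without mixed barcodes shared 158 of the 188 higher and 198 of the 212 lower calls. Levels and fold changes of this comparison are given below for all members, mixed barcodes included. The pairs compare cells within each mouse, and genes that track the 7 genes used to separate the gates follow from the choice of cells.

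Tmem176b, which encodes a vesicle membrane protein, was at 322, 458, 222 and 367 CPM in ILC1-like and 0, 14.7, 20.6 and 4.04 CPM in NK-like sums. The sets did not overlap, and the log2 fold change was 5.00 ± 0.36 (SE, edgeR adjusted p = 2.25e-07). Its neighbour Tmem176a showed 5.77 ± 0.42. Tcrg-C4, a constant segment of the T cell receptor gamma locus with near-identical copies, was at 132, 80.4, 135 and 148 CPM in ILC1-like sums. It had 0 UMIs in every NK-like sum, so it was at least 38.7-fold higher (over the group, against 3 counts). In contrast Trdc, the delta chain constant region, was lower in ILC1-like cells, at 22.98, 5.36, 20.2 and 12.3 CPM against 69.6, 58.7, 90.6 and 48.5 (log2 fold change -2.23 ± 0.40, edgeR adjusted p = 0.00134). Cd200r1, the inhibitory receptor for CD200, was at 103, 75.0, 108 and 173 CPM against 0 to 8.23 CPM (4.99 ± 0.51). Tnfsf10, which encodes TRAIL, was at 138, 96.4, 94.3 and 154 CPM against 4.64, 18.4, 4.12 and 20.2 (3.21 ± 0.38, edgeR adjusted p = 2.9e-05).

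Further genes with a large rise were Inpp4b, a phosphoinositide phosphatase (4.80 ± 0.43), and Ckb, the brain-type creatine kinase (4.69 ± 0.44). They were followed by St6galnac3, a sialyltransferase (3.32 ± 0.39), Ly6a, which encodes Sca-1 (3.102 ± 0.54), Bcl2a1d, a survival gene with near-identical copies (2.92 ± 0.20), and Itgb3, the integrin beta 3 chain (2.89 ± 0.34). Ly6a ranged from 270 CPM in control members to 40.1 CPM in TAA+C30.

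Gzma, which encodes granzyme A, was at 385, 378, 1206 and 819 CPM in ILC1-like and 8726, 6079, 7859 and 9403 CPM in NK-like sums. The highest ILC1-like sum was far below the lowest NK-like sum, with a log2 fold change of -3.66 ± 0.21 (edgeR adjusted p = 5.15e-08). Itga2 and Itgam, which encode CD49b and CD11b, gave -3.08 ± 0.35 and -3.41 ± 0.30. The protease gene Cma1 (-5.58 ± 0.41), the protease inhibitor gene Serpinb9b (-5.08 ± 0.43), the transcription factor gene Myb (-4.49 ± 0.41) and Khdc1a (-6.44 ± 0.56) were close to 0 in ILC1-like cells. Stmn1, a microtubule regulator of cycling cells, gave -3.83 ± 0.44, Rap1gap2 -3.34 ± 0.57, As3mt -2.73 ± 0.45 and Arl5c -2.53 ± 0.28. All 24 genes that met the naming rule kept their call in every alternative that tested them. Thinning to 1000 UMIs tested only 2 of them. Ly6a was tested in only 8 alternatives, and the one without mixed barcodes was not among these. The same direction in the 4 libraries was a condition of the rule.

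**Figure D4:**
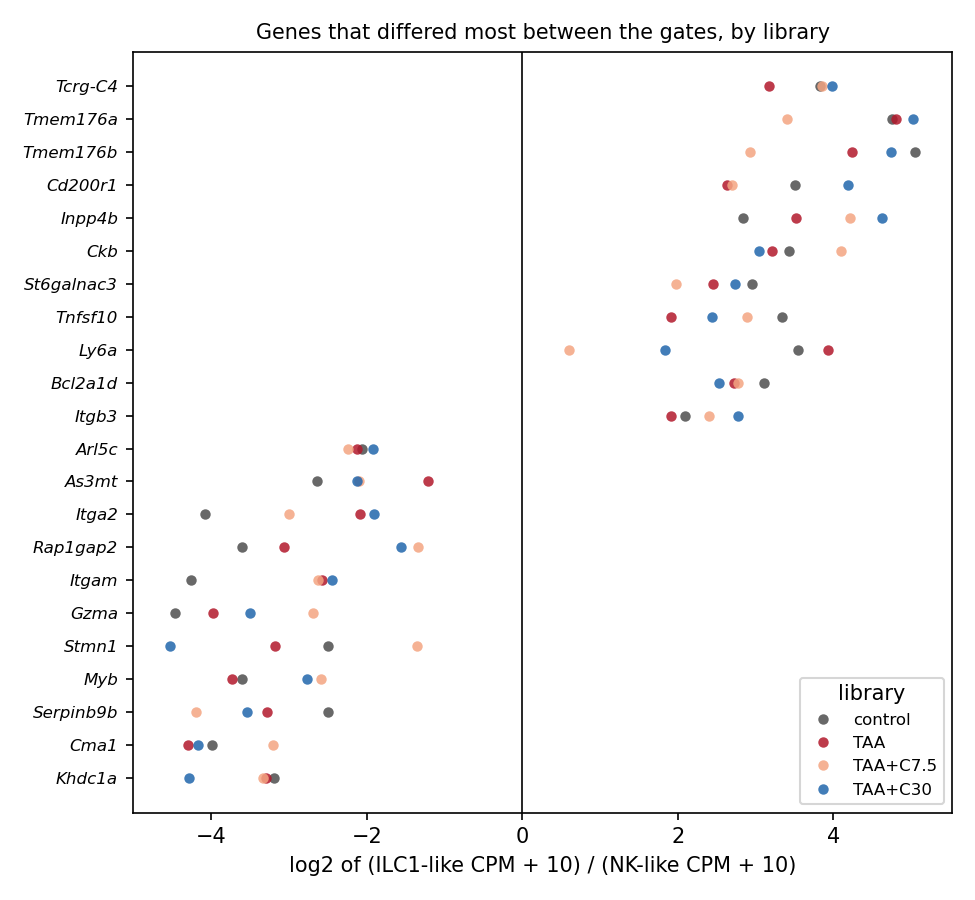
Log2 ratio of ILC1-like to NK-like CPM (10 CPM added to both) in each library for the named genes with the largest rise and the largest fall. All 4 libraries lie on the same side of 0 for each gene, which the naming rule required.

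Gene lists were read against the 5.00% and 5.64% of all genes and a median log2 fold change of 0.00. Of 17 tested ILC1 identity genes outside the rule, 13 were higher and 0 lower (median 2.07). Besides those above these included Xcl1 (1.83 ± 0.18), Rora (2.69 ± 0.22), Il21r (2.07 ± 0.25), the costimulator gene Icos (2.05 ± 0.31) and Ltb, the lymphotoxin beta gene (1.85 ± 0.29). Cd69, Thy1, Tcf7 and Nt5e did not pass. Of 14 mature NK genes, 0 were higher and 11 lower (median -2.05), with Irf8 at -2.51 ± 0.16, Prf1 (perforin) at -2.18 ± 0.15 and Zeb2 at -1.92 ± 0.24. Gzmb (-0.67 ± 0.21), Tbx21 and Cd27 did not pass. Gzmb was close to the limit (edgeR adjusted p = 0.0505) and passed in 5 of 13 alternatives. It was lower in ILC1-like sums in 3 libraries and higher in control (1482 against 1174 CPM). Both lists were drawn up with earlier results of these data known, so their direction is not independent evidence.

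Effector genes were divided. Of 13 cytotoxic granule and death ligand genes, 1 was higher (Tnfsf10) and 4 were lower, with Nkg7 at -1.14 ± 0.16 besides Gzma and Prf1; Serpinb9 passed in 5 of 13 alternatives. Of 7 secreted factors, Xcl1 and Ltb were higher and the chemokine genes Ccl5 (-1.38 ± 0.12) and Ccl3 (-1.10 ± 0.17) lower. Ifng was at 396, 204, 465 and 407 CPM against 260, 228, 642 and 469 in NK-like sums and did not pass (-0.10 ± 0.18, edgeR adjusted p = 0.80).

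Among 21 cytokine receptor and signalling genes 4 were higher and 4 lower. Higher were Il21r, Tgfbr2 (1.32 ± 0.24) and the feedback inhibitors of STAT5 signalling Cish (1.99 ± 0.27) and Socs2 (2.02 ± 0.38). Lower were the receptor chains for interleukin-12 and interleukin-18, Il12rb2 (-1.33 ± 0.29), Il18rap (-1.28 ± 0.16) and Il18r1 (-0.91 ± 0.17), and Jak1 (-0.81 ± 0.13). Of 20 lineage transcription factors 5 were higher (Rora, Ikzf2, Tox, Ahr and Zeb1) and 5 lower (Irf8, Zeb2, Lef1, Klf2 and Runx3), the last with a call in 8 of 13 alternatives.

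Surface receptors likewise moved in both directions. Of 19 NK receptors and adaptors, 5 were higher, namely Cd226 (2.25 ± 0.26), Cd7 (1.86 ± 0.18), Cd160 (1.61 ± 0.22), Klrb1b (1.40 ± 0.17) and Klrc1 (1.22 ± 0.19). The 3 lower were Klri2, Klre1 and the signalling adaptor Tyrobp (-1.09 ± 0.12). Of 5 inhibitory receptors 3 were higher (Cd200r1, Lag3 and Cd96) and Klrg1 lower, with Cd96 called in 7 of 12 alternatives. Of 13 residency and egress genes, the G protein regulators Rgs1 (2.10 ± 0.13) and Rgs2 (1.33 ± 0.14) were higher. Another 6 were lower, among them Itga4, Klf2, Ccr2, Cxcr4 and Itgb1, and Cxcr4 had the same direction in only 3 libraries. Of 21 immediate early and dissociation genes, 5 were higher and 0 lower, Junb (0.93 ± 0.10) and Atf3 (1.69 ± 0.37) among them; their part in the other differences was not tested. Of 6 cell cycle genes, 3 were lower and 0 higher.

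Between libraries the members' summed counts were compared as CPM, with 10 CPM added to both sides for log2 ratios, for genes whose UMIs in the pair of libraries summed to 10 or more. TAA was a party to 3 of the 4 comparisons, so these share its counts. When raw totals were replaced by TMM scaling the median of all genes moved from -0.12 to 0.11 for TAA against control, from -0.01 to -0.12 for TAA+C7.5 against TAA and from -0.04 to 0.10 between the doses. The counts of genes at least 1.5-fold higher and lower moved with it, from 1165 and 1850 to 1711 and 1353, from 861 and 1201 to 665 and 1458, and from 826 and 949 to 1140 and 665. List medians are therefore set beside the median of all genes.

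In all members, the largest differences between TAA and control were in genes better known from other cell types. Rspo3 and Cldn5, which are endothelial genes, and Cyp4b1 and Gatm were lower in TAA (log2 ratios -5.10, -4.07, -4.36 and -4.20). Clu, Lcn2, Spp1 and Mmp7, genes of injured bile duct epithelium, were higher (6.91, 5.07, 4.81 and 4.34). Of 6887 genes 16.9% were at least 1.5-fold higher and 26.9% lower. Without mixed barcodes, 5602 genes remained, of which 18.3% were higher and 23.5% lower, and none of these 8 genes was among the largest differences. Rspo3, Cldn5 and Mmp7 then had a log2 ratio of 0.00, and Clu in TAA members went from 444 to 11 UMIs.

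Without mixed barcodes, TAA members held less Gzmb and more Nrarp and Pmepa1 than control members. Gzmb was at 2244 CPM in control, 349 in TAA, 552 in TAA+C7.5 and 478 in TAA+C30, and its TAA level was 6.43 times lower than control (exact 95% interval 5.13 to 8.09). Control stood far above the 3 treated libraries, of which TAA was the lowest. In NK-like cells the same gene was at 1174, 730, 1113 and 870 CPM. Nrarp, a feedback inhibitor induced by Notch signalling, had 0 UMIs in control and 148 CPM in TAA, at least 5.68-fold higher (3 counts in control). Its NK-like levels were 46.4 and 422 CPM. Pmepa1, a TGF-beta-induced inhibitor of that pathway, was at 8.70 CPM (1 UMI) and 185 CPM, a ratio of 21.3 (3.68 to 856), with 4.64 and 165 CPM in NK-like cells. Both genes were therefore low in control and higher in TAA in either gate.

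The other genes named by rule were Chka, a choline kinase, at 26.1 and 198 CPM (3 control UMIs, ratio 7.58, interval 2.48 to 37.7), and the kinase gene Mapkapk3, at 34.8 and 244 CPM (7.02, 2.63 to 26.4). Lower in TAA were the heat shock gene Hspa1b, at 1591 and 281 CPM (5.66 times, 4.38 to 7.36), the zinc finger gene Klf3, at 296 and 58.7 CPM (5.04 times, 2.79 to 9.35), and Klra9. Klra9 was at 226 and 43.2 CPM, but it belongs to a family of close copies and is uncertain, as are Hspa1a and Hspa1b. Xcl1 was 1870 and 3256 CPM, and Gzmc 330 and 834 CPM.

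By list, 14 of 21 immediate early and dissociation genes were at least 1.5-fold lower in TAA than in control and 0 higher (median log2 ratio -0.76, all genes -0.09), with Dusp1 at 1618 and 485 CPM. Of 14 residency and egress genes 9 were lower and 2 higher (-0.87), with Itgal, the LFA-1 alpha chain, at 722 and 284 CPM and Gpr183 the highest. NK receptors had 8 of 19 lower and 0 higher (-0.39), Cd160 at 452 and 124 CPM among them. With mixed barcodes kept, the median of this list was 0.05. Of 10 secreted factors 6 were lower (-0.77). Ccl4 was at 3557 and 1270 CPM and Ifng at 600 and 229 CPM, while Xcl1 and Tgfb1 (200 and 686 CPM) were the 2 higher. Interferon response genes had 7 of 15 higher and 2 lower (0.58), and TGF-beta responses 6 of 12 higher and 1 lower (0.33), led by Pmepa1. Hilpda, a hypoxia-induced lipid droplet gene, was at 78.3 and 399 CPM. The dissociation genes moved with these lists, and their part was not tested.

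Mixed barcodes changed several of these counts. With all members kept, 7 of 22 immediate early and dissociation genes were lower and 4 higher (median -0.47, all genes -0.12), and the residency list had 3 lower and 3 higher of 14 (-0.34). Secreted factors then had 5 of 11 lower and 2 higher (-0.39), and interferon genes 7 of 19 higher and 3 lower (0.08). The TGF-beta list had 6 of 12 higher and 3 lower (0.59). Gzmb was at 1482 and 303 CPM, 4.90 times lower in TAA (3.91 to 6.16), so its order did not depend on these barcodes.

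In TAA+C7.5 members, Icam1, Ccl3 and Ccl4 were higher than in TAA, and Cxcl2 and Xcl1 were lower. Without mixed barcodes, 15.6% of 5741 genes were at least 1.5-fold higher and 16.2% lower, and with them 13.6% and 19.0%. Icam1, the adhesion ligand of LFA-1, was at 191, 117, 499 and 247 CPM across the 4 libraries, and TAA+C7.5 was 4.25 times TAA (2.84 to 6.46). In NK-like cells it was at 186, 393, 1075 and 656 CPM, so TAA+C7.5 was highest in both gates. Cxcl10, an interferon-induced chemokine, was at 18.5 and 175 CPM (9.45 times, 3.804 to 28.1), on 6 and 26 UMIs. Among all members its log2 ratio was 1.81, and 0.50 when cells with any Cd3 or Trac UMI were left out, so most of the difference lay in such cells. Nptn was at 46.3 and 189 CPM (4.07 times, 2.10 to 8.20).

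Lower in TAA+C7.5 than in TAA were Cxcl2, a neutrophil chemokine, at 247 and 27.0 CPM (9.17 times, 3.44 to 34.5), and the actin-capping gene Capg, at 102 and 13.5 CPM (7.57 times, 1.93 to 65.1). Nrarp was at 148 and 27.0 CPM (5.50 times, 2.01 to 21.01) and Alkbh1 at 114 and 20.2 CPM (5.65 times, 1.79 to 28.7). Cxcl2 had 11.0 and 169 CPM in NK-like cells, the opposite order. In control members it was highest, at 974 CPM. Il7r, at 269 and 950 CPM, is a gene of the rule and is given as a description, since members admitted by Il7r alone were 7 of 64 and 22 of 66. With mixed barcodes kept, the named differences outside the rule were Icam1, Ccl3 and the adhesion gene Cd2 (56.3 and 236 CPM) on the higher side. On the lower side they were Clu, Spp1, Lcn2 and Mmp7, whose UMIs lay mostly in the mixed TAA barcodes.

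Of 9 secreted factors, 6 were higher in TAA+C7.5 than TAA and 1 lower (median log2 ratio 0.99, all genes 0.01). Areg, which is also in the ILC2 list, had the largest ratio, and its levels are given under other observations. Ccl3 was at 247 and 795 CPM, Tnf at 24.7 and 80.9 CPM and Ccl4 at 1270 and 3268 CPM. Xcl1 (3256 and 1880 CPM) was the lower member. Cells admitted by Il7r alone were 7 of 64 members in TAA and 22 of 66 in TAA+C7.5. Pooled over libraries without mixed barcodes, they held 1877 CPM of Xcl1, against 2884 CPM in cells with 2 or more gate genes. The part of this make-up was not tested. Of 21 immediate early and dissociation genes 14 were higher and 1 lower (0.72), with Hspa1a at 139 and 458 CPM. That list again moved with the secreted factors, and its part was not tested. Among lineage transcription factors 6 of 19 were higher and 0 lower (0.22), Klf2 (315 and 809 CPM) the first of them. Receptors showed no such shift, with 2 of 19 NK receptors higher and 0 lower (0.14).

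In TAA+C30 members, the heat shock genes Hspa1a, Hspa1b and Hsph1 and the chemokine genes Ccl3, Ccl4 and Ccl5 were higher than in TAA, and Cxcl2 was lower. Without mixed barcodes, 11.1% of 6417 genes were at least 1.5-fold higher and 13.8% lower, and with them 9.85% and 15.6%. Hspa1a was at 478, 139, 458 and 1168 CPM, and TAA+C30 was 8.41 times TAA (6.15 to 11.7). Hspa1b (281 and 1258 CPM) and Hsph1 (127 and 357 CPM) were 4.47 times (3.55 to 5.69) and 2.82 times (1.95 to 4.16) TAA. NK-like cells had 389 and 1196 CPM of Hspa1a, so the same order was seen there. Myc was at 34.0 and 117 CPM (3.44 times, 1.70 to 7.52). Lower were Cxcl2 (247 and 51.6 CPM), the pleckstrin homology gene Phlda1 (256 and 58.4 CPM), the noncoding Kcnq1ot1 (207 and 61.9 CPM) and Glyr1 (117 and 34.4 CPM). Cxcl2 and Phlda1 were 4.79 times (2.74 to 8.96) and 4.39 times (2.58 to 7.89) lower, and Phlda1 had the opposite order in NK-like cells, at 99.1 and 169 CPM. With mixed barcodes kept, the galectin-3 gene Lgals3 (34.8 and 139 CPM) joined the higher genes, while Spp1, Clu, C3 and Sparc led the lower.

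Again 6 of 10 secreted factors were higher and 1 lower (median log2 ratio 0.70, all genes -0.04). Ccl3 was at 247 and 622 CPM, Ccl4 at 1270 and 2907 CPM and Ccl5 at 3794 and 7911 CPM. Of 21 immediate early and dissociation genes 9 were higher and 0 lower (0.41). Among TGF-beta responses 3 of 12 were lower and 1 higher (-0.25), with Pmepa1 at 185 and 107 CPM. The Xcl1 ratio was small, at 3256 and 2887 CPM, and so was that of Gzmc. Rora was at 658 and 357 CPM and Cd200r1 at 80.3 and 182 CPM, the lowest and highest members of the ILC1 identity list.

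Between the doses, without mixed barcodes, 14.1% of 5524 genes were at least 1.5-fold higher in TAA+C30 and 16.9% lower, and with them 14.3% and 16.4%. Higher were Itgav, the integrin alpha v chain, at 60.6 and 254 CPM (4.19 times, 2.09 to 9.53), Nrarp at 27.0 and 107 CPM and Rbpj, the DNA-binding partner of Notch, at 53.9 and 182 CPM (3.38 times, 1.60 to 8.23). The chemokine receptor gene Ccr2 was at 53.9 and 189 CPM (3.51 times, 1.66 to 8.53). Across all 4 libraries, Itgav was at 113, 219, 60.6 and 254 CPM and Rbpj at 191, 244, 53.9 and 182 CPM, so TAA+C7.5 was the low library in both. In NK-like cells Itgav was at 21.2 and 20.6 CPM and Rbpj at 29.6 and 37.1 CPM for the 2 doses. Lower in TAA+C30 were the transcription inhibitor gene Hexim1 (283 and 55.0 CPM, 5.15 times, 2.83 to 9.81), Gramd3 (296 and 61.9 CPM), Pcgf5 (162 and 30.9 CPM) and the proteoglycan gene Sdc4 (141 and 30.9 CPM). With mixed barcodes kept, Lgals3 (20.2 and 139 CPM, 3 and 45 UMIs) and Rnh1 (20.2 and 117 CPM) had the largest log2 ratios, 2.30 and 2.07. At 1000 UMIs per cell the Lgals3 ratio was -0.22, the opposite direction.

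By list, secreted factors had 2 of 11 higher and 2 lower (-0.07, a sign that TMM scaling turned in all members). Lineage transcription factors had 2 of 19 higher and 7 lower (-0.11). Tcf7 was at 108 and 30.9 CPM, Lef1 at 60.6 and 17.2 CPM and Rora at 768 and 357 CPM. Cells admitted by Il7r alone, 22 of 66 and 12 of 94 members, held 161 CPM of Tcf7 and 789 CPM of Rora when pooled. Pooled cells with 2 or more gate genes held 48.7 and 551 CPM. The part of this make-up was not tested.

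**Figure D5:**
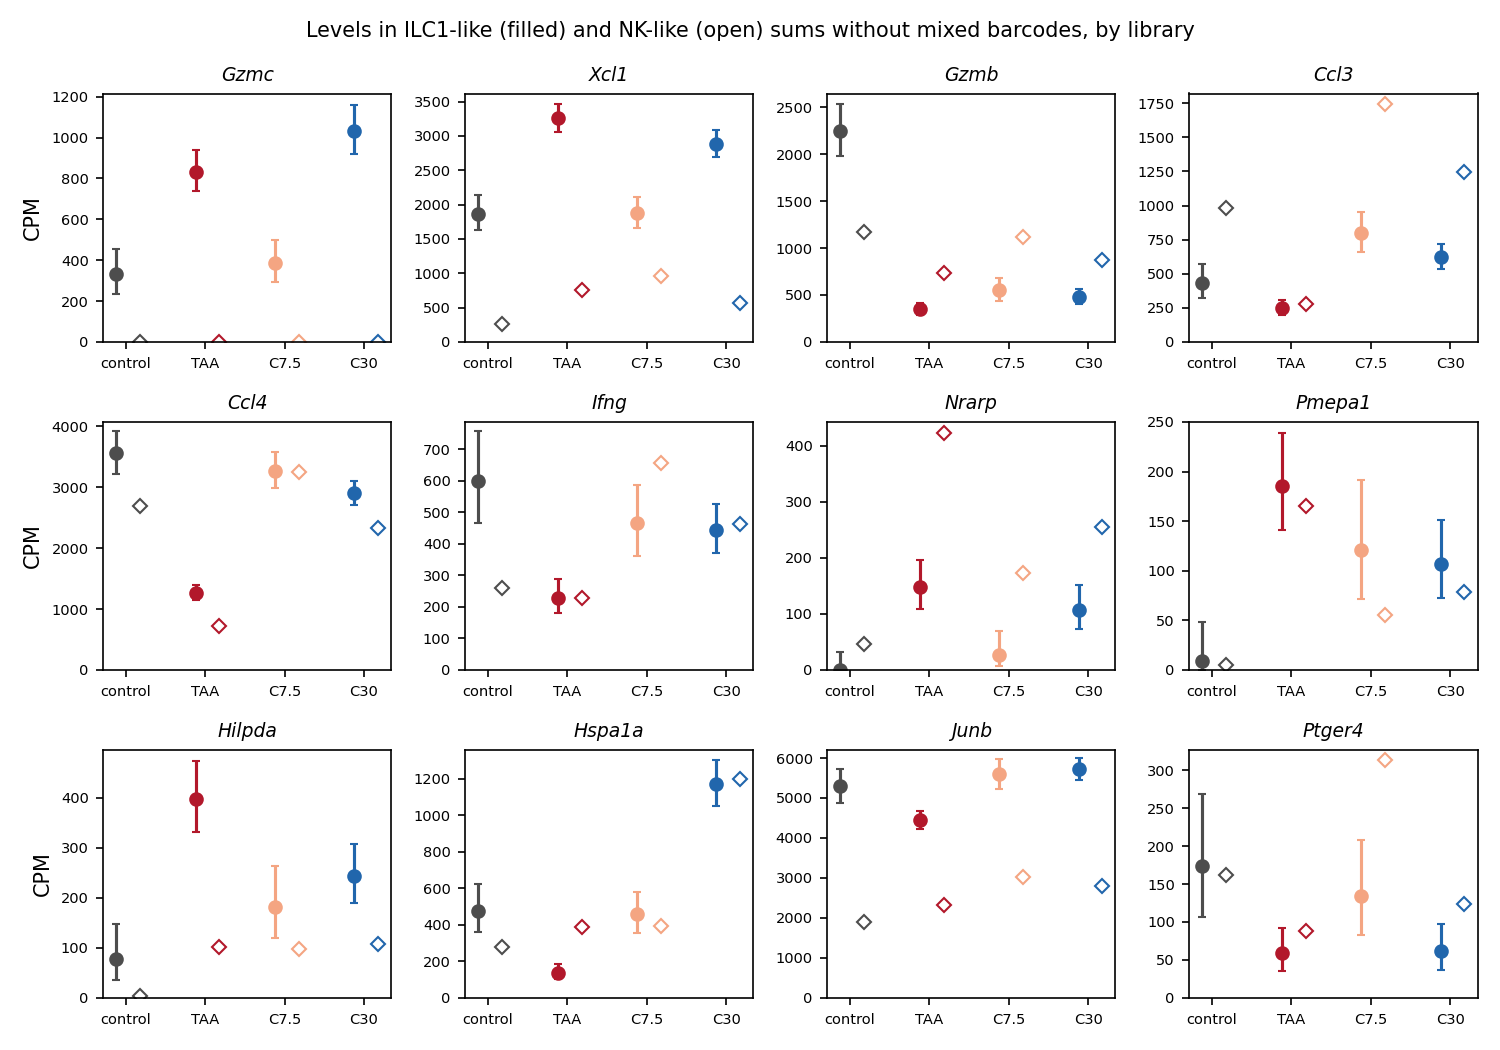
CPM of 12 genes by library, in ILC1-like sums (filled, with exact Poisson 95% intervals) and NK-like sums (open), both without mixed barcodes. Gzmc is at 0 in NK-like sums by the rule; Gzmb is highest in control members (2244 CPM), Ccl4 lowest in TAA (1270 CPM), and Hspa1a highest in TAA+C30 (1168 CPM).

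Because celecoxib acts on prostaglandin synthesis, genes of that pathway were examined. In lymphocytes prostaglandin E2 acts chiefly through the receptors EP2 and EP4, encoded by Ptger2 and Ptger4. Only 2 of 18 listed genes were abundant enough to be tested between gates. Ptger4 was lower in ILC1-like cells, at 115, 50.9, 135 and 70.9 CPM against 162, 88.1, 305 and 121 CPM (-0.84 ± 0.22, edgeR adjusted p = 0.0196), and passed in 7 of 12 alternatives, with adjusted p from 0.0061 to 0.25. Without mixed barcodes it was at 174, 58.7, 135 and 61.9 CPM (18 to 20 UMIs in each), so control and TAA+C7.5 were higher than TAA and TAA+C30. Ptger2 had 2 UMIs in all, both in TAA+C7.5. Ptgs2, which encodes cyclooxygenase-2, had 5, 0, 0 and 1 UMIs and Ptgs1 4, 1, 1 and 2. Against TAA, the control counts were higher in both, with exact intervals that exclude 1 but cover counting error only. Ptgs2 was at least 4.69-fold lower in TAA than in control (against 3 counts in TAA). Ptgs1 was 11.3 times lower (1.11 to 555, on 4 and 1 UMIs). Both rest on at most 5 UMIs per library, below the 30 UMIs needed to be named, and are descriptions only. With mixed barcodes Ptgs1 was at 178 CPM in control, which lay mostly in those barcodes. In all members, 5 of the 6 measured prostanoid genes were at least 1.5-fold lower in TAA than in control and 0 higher. Their median log2 ratio was -1.44 (all genes -0.12), and 26.9% of all genes were lower and 16.9% higher. This count includes the mixed control barcodes. Without mixed barcodes fewer than 5 listed genes were measured, so no list median was computed, and the part of those barcodes was not tested.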

How the data were processed

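Per the submitters' processing notes, the authors processed the 10x reads with Cell Ranger 3.1.0 against mm10 and deposited UMI counts per gene and barcode. All 55450 gene IDs were found in GENCODE M21. No further normalization had been applied, and a deposited text table of expression values was not used. Barcodes with at least 200 genes and at most 20% mitochondrial UMIs were kept (24561 of 25899), and doublets were marked with Scrublet (expected 5%, Scanpy 1.11.5) but kept. The ILC1-like and NK-like gates were applied in Python 3.11.15. The members, the gates and all 28 gene lists were chosen with earlier results of these data known.

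CPM were computed from counts summed over cells. Shares have exact Clopper-Pearson and levels exact Poisson 95% intervals, and ratios exact conditional binomial ones (SciPy 1.17.1). A count of 0 was read as at most 3 counts. ILC1-like and NK-like sums were compared with edgeR 4.0.16 (R 4.3.3) by its quasi-likelihood test with TMM scaling, its filter on low counts and Benjamini-Hochberg adjustment over all genes tested. The 4 pairs share a mouse (2 gates of each library), so the mouse was the block. Both scripts were tested on simulated data. Each library is 1 mouse, so p-values compare cells within mice and not treatments.

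Named between gates were the 12 highest and 12 lowest log2 fold changes with an adjusted p at or under 0.05 and the same direction in all 4 libraries. Named between libraries were the 4 highest and 4 lowest log2 ratios. Eligible genes had at least 100 CPM in the higher library and at least 30 UMIs in the pair of libraries together. Marker genes of hepatocytes, endothelium, myeloid and red cells, and genes under 10% of their CPM in other barcodes, were left out, and a few items are not reported here. Alternatives were DESeq2 1.42.0, other scaling, filters, gates, thinning, and, added after the data were seen, mixed barcodes or a gate gene left out. Itga1, Il7r and the other genes of the rule were given without a test.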

Additional observations from a re-analysis of the deposited data

How the results depend on the processing

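All 24 genes that met the naming rule between gates kept their direction and call in each of the 285 alternative values computed for them. For Ly6a these were 8 values, with none from the fit without mixed barcodes. The number of genes called between gates moved more. DESeq2 gave 96 higher and 107 lower, the fit with no replicate block 111 and 122, and no filter on low counts 531 higher. Thinning to 1000 UMIs, which leaves fewer cells and UMIs, gave 33 and 38. Leaving out each library in turn gave 128 to 186 higher and 119 to 230 lower, with 119 when the TAA+C30 library was left out.

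Shares depended on depth and on the gate. After thinning, the ratio of ILC1-like shares was 0.803 for TAA against control, the opposite direction, 2.41 for TAA+C7.5 against TAA and 2.79 for TAA+C30 against TAA. Leaving Il7r out gave 0.624 for TAA+C7.5 against TAA and 2.32 between the doses. As a percentage of NK and ILC barcodes, thinning gave 24.1 in control, 40.6 in TAA and 29.3 in TAA+C7.5. A gate sum of at least 3 gave 35.9 in TAA, 22.2 in TAA+C7.5 and 40.4 in TAA+C30. Leaving Il7r out gave 19.7 in TAA+C7.5 and 42.9 in TAA+C30. The cause was not tested for any of these.

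Between libraries, alternatives were set against the values of all members. Of the named genes, 341 alternative values stayed within the interval of that value, 33 moved and 1 reversed. Leaving out mixed barcodes gave 20 of the 33 moved values, and 52 stayed. Of list medians 359 stayed and 2 moved. A list median counted as stayed between the median bounds of its genes, a wide band. The residency list for TAA against control thus stayed, at -0.87 without mixed barcodes against -0.34 with them. Thinning left 193 genes at least 1.5-fold higher and 229 lower between the doses, and reversed Lgals3 (log2 ratio -0.22); its cause was not tested. For the other 3 comparisons thinning was not run, since it left 13 members in TAA and in control. Depth limits any gene with few UMIs, most prostanoid genes included.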

Other observations

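Barcodes that met the ILC1 sum and held at least 1 UMI of Klra8, Klra4 or Eomes belong to neither gate. They numbered 5, 2, 1 and 5 in control, TAA and the lower and higher celecoxib dose. Without mixed barcodes they numbered 1, 2, 1 and 4. A further 143 barcodes passed the other conditions with no UMI of Gzmc, Cxcr6, Itga1 or Il7r and none of Klra8, Klra4 or Eomes, 63 of them in the shallowest library. Summed without mixed barcodes, these held 1665 CPM of Xcl1, 5096 of Gzma and 201 of Tmem176b, between the levels of the ILC1-like and NK-like cells. Zfp683, which encodes the residency factor Hobit, was at 5.75, 18.8, 0 and 12.3 CPM in all ILC1-like cells and at 0 in every NK-like sum, on too few UMIs to be tested. Areg, a growth factor gene typical of other innate lymphoid cells, was at 0, 9.27, 80.9 and 3.44 CPM in ILC1-like cells without mixed barcodes.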
